A study of Mus musculus with 18 samples.

Results

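The 10 genes described here are the G1 cyclins Ccnd1, Ccnd2, Ccnd3, Ccne1 and Ccne2, the kinases Cdk4 and Cdk6, and the CDK inhibitors Cdkn1a, Cdkn1b and Cdkn2c, chosen by their symbols from the 16314 gene symbols of the count table. All 10 were in the table, and all 10 were among the 12021 genes that passed the filter on low counts. Bulk RNA-seq had measured them in bone marrow-derived macrophages (BMDMs) of mice on a C57BL6/J background that carried 1 (Prep+/-) or 0 (Prep-/-) functional alleles of Prep, which encodes prolyl endopeptidase. Bone marrow of littermates was cultured with M-CSF at 50 ng/ml for 7 days and then left without treatment (M0), given LPS at 50 ng/ml for 24 h (M1), or given IL-4 and IL-13 at 20 ng/ml each for 24 h (M2). Each of the 6 groups had 3 libraries, called replicates 1 to 3. Every culture thus lacked at least 1 Prep allele and had been grown in M-CSF, and no group was wild type. Whole cultures were sequenced, so a lower level of a transcript cannot be told apart from a smaller share of cells that hold it.

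Progress from G1 into S phase begins when a growth factor induces D-type cyclins, which bind Cdk4 or Cdk6 and start to phosphorylate the retinoblastoma protein. This releases E2F factors, which induce the E-type cyclins, the partners of Cdk2. In macrophages the main growth factor is M-CSF, acting through its receptor Csf1r. The inhibitor p21 (Cdkn1a) is a target of p53, p27 (Cdkn1b) accumulates in resting cells, and p18 (Cdkn2c) binds Cdk4 and Cdk6 themselves. Both stimuli, LPS and IL-4, are known to slow the M-CSF-driven division of cultured macrophages.

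In the GENCODE annotation of GRCm39, Ccnd1 lies at chr7:144483668-144493662 on the minus strand, Ccnd2 at chr6:127102125-127129156 on the minus strand and Ccnd3 at chr17:47815767-47910624 on the plus strand. Ccne1 is at chr7:37797404-37808264 (minus) and Ccne2 at chr4:11190303-11204947 (plus). The kinases are at chr10:126895180-126903789 (Cdk4, plus) and chr5:3391485-3581008 (Cdk6, plus). The inhibitors are at chr17:29309936-29319701 (Cdkn1a, plus), chr6:134897364-134902476 (Cdkn1b, plus) and chr4:109517957-109524386 (Cdkn2c, minus). All 10 are protein-coding genes, and counts were summed over the whole gene.

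The RefSeq promoter table (build GRCm38.p6) held 7 of the 10 genes, leaving out Ccnd1, Ccnd2 and Ccne2. The 250 bases before the start were searched on both strands for the E-box CACGTG, for CCAAT, for the GC box GGGCGG, for the PU.1 letters GAGGAAGT and for 4 forms of the E2F site (TTTCCCGC, TTTGGCGC, TTTCGCGC and TTTGCCGC). The windows of both kinases, of Ccne1 and of the inhibitors Cdkn1b and Cdkn2c are shown, since these held the most E-boxes, CCAAT boxes and GC boxes among the members, with every match in capitals. They lie at chr10:127063285-127063534 (Cdk4, plus), chr5:3343643-3343892 (Cdk6, plus), chr7:38107491-38107740 (Ccne1, minus), chr6:134920151-134920400 (Cdkn1b, plus) and chr4:109666757-109667006 (Cdkn2c, minus), all in GRCm38.p6.
Cdk4: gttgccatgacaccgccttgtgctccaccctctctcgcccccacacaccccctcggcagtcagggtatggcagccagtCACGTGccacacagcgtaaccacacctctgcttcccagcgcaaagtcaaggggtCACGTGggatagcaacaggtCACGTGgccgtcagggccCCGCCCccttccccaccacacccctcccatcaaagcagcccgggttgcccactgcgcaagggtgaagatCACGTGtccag
Cdk6: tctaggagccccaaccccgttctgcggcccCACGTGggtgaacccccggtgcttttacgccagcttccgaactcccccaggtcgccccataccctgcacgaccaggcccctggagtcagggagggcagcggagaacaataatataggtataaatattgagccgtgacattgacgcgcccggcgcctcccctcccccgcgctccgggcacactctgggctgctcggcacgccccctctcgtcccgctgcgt
Ccne1: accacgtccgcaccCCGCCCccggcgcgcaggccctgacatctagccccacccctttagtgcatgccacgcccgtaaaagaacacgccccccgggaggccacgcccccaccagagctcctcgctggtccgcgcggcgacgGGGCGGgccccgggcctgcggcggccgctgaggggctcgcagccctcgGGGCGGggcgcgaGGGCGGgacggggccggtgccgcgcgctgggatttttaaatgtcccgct
Cdkn1b: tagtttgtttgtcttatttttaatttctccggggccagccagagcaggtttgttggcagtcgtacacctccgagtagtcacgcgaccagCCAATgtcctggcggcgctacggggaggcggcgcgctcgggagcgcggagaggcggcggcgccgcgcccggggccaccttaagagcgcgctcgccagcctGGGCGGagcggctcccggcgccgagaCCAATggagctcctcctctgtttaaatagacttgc
Cdkn2c: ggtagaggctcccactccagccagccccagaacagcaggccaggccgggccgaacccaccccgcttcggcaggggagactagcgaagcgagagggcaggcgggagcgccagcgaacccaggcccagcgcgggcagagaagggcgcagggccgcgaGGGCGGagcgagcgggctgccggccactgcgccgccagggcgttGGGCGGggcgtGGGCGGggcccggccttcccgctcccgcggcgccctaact

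The Cdk4 window held 4 E-boxes, the site of Myc and Max dimers, and the Cdk6 window held 1. At least 1 E-box was found in 6.02% of the 32851 windows of the table, and at least 4 in 0.0213%. The Ccne1 window held 4 GC boxes and the Cdkn2c window 3, where 4.09% of windows held at least 4 and 8.47% at least 3. The Cdkn1b window held 2 CCAAT boxes and 1 GC box, where 10.1% of windows held at least 2 of the first and 32.7% at least 1 of the second. These matches describe the letters only, and none of the windows of the 7 genes held the E2F or PU.1 letters searched for, which 1.86% and 2.44% of all windows hold.

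The table held 19068237 to 22598279 counts per library. Prep itself stood between 26.0 and 42.5 CPM (counts scaled by TMM to a common library size) in the 9 Prep+/- libraries and between 1.48 and 3.22 CPM in the 9 Prep-/- libraries. The summed level of 10 macrophage markers was 19500 to 22920 CPM in Prep+/- M0 and 30980 to 48860 CPM in Prep-/- M0, 46620 to 48050 and 31870 to 37760 CPM in M1, and 10810 to 12960 and 14690 to 20420 CPM in M2, while markers of erythroid cells, mast cells and dendritic cells were each under 3 CPM in sum. Markers of T cells (3 of 8 in the table) summed to 8.17 to 29.7 CPM in Prep-/- M0 against 0.947 to 1.09 CPM in Prep+/- M0, and 8 stem and progenitor markers to 6.402 to 7.567 CPM against 14.99 to 21.66 CPM. The T cell sums were 3.23 to 4.68 against 0.899 to 1.67 CPM in M1 and 1.65 to 2.78 against 0.256 to 0.755 CPM in M2. Progenitor sums were 1.14 to 1.98 against 1.94 to 2.81 CPM in M1 and 5.38 to 9.63 against 11.15 to 11.95 CPM in M2. Stromal markers (8 of 8) summed to 0.508 to 17.7 CPM in Prep-/- M0 against 13.5 to 17 CPM. They summed to 5.75 to 18.05 against 19.03 to 21.4 CPM in M1 and 2.06 to 7.48 against 0.725 to 16.2 CPM in M2. Granulocyte precursor markers (10 of 10) summed to 67.9 to 156 CPM in Prep-/- M0 against 31.9 to 44.0 in Prep+/- M0, to 51.5 to 71.6 against 79.1 to 145 in M1, and to 30.9 to 47.1 against 25.1 to 30.7 in M2. B cell markers (5 of 8) summed to 9.08 to 11.95 CPM in Prep-/- M0 against 3.01 to 4.92, to 5.09 to 7.17 against 2.24 to 3.04 in M1, and to 1.05 to 4.75 against 1.61 to 3.45 in M2. The part of these cells in the results was not tested. Replicate 3 of Prep-/- M2 stood apart from its group, with a root mean square deviation of 0.454 on the log2 scale over all genes tested, as did replicate 3 of Prep-/- M0 with 0.396. The others lay between 0.162 and 0.306. Values without the M2 library stand beside most of the results that it moved.

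Most of the G1 genes were lower in Prep-/- than in Prep+/- macrophages in M0 and M2, and fewer of them in M1. In M0, 8 of the 10 were lower in Prep-/- than in Prep+/-, 1 (Cdkn1b) was higher and 1 (Ccnd3) was not called at an adjusted p under 0.05 (edgeR's quasi-likelihood test, adjusted over all genes tested). In the same comparison 48.4% of all genes tested were called, 24.1% of all as lower and 24.3% as higher. In M1, 4 were lower, 2 (Cdkn1a and Cdkn1b) higher and 4 not called, against 36.2% of all genes called (19.7% higher, 16.5% lower). In M2, 7 were lower, 0 higher and 3 not called, against 24.6% of all genes (11.6% higher, 13.1% lower). The 10 genes had median log2 fold changes of -1.39, -0.33 and -1.18 in the 3 states, where those of all genes tested were 0.02, 0.04 and 0.03. Without replicate 3 of Prep-/- M2, all 10 genes were called in M2, 9 as lower and Cdkn1b as higher, and 32.2% of all genes were called.

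**Figure D1:**
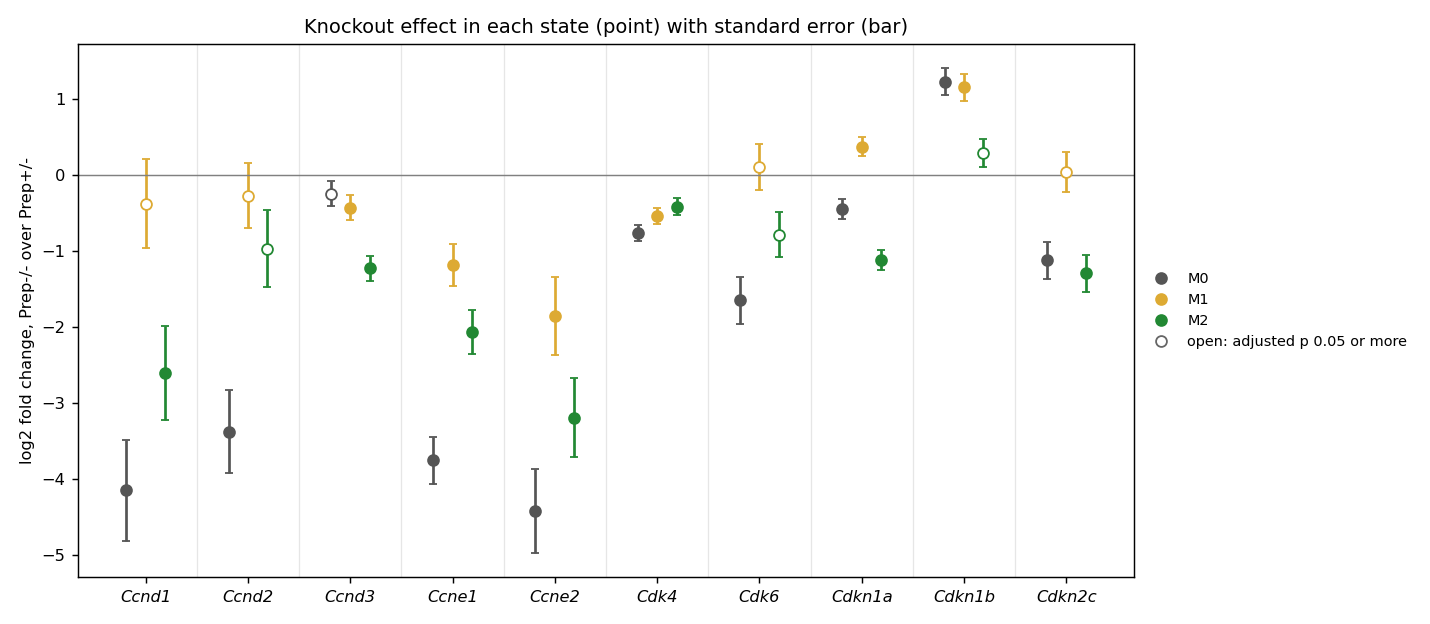
Log2 fold change of Prep-/- over Prep+/- (vertical axis) for each of the 10 genes in M0, M1 and M2; points are the edgeR estimates from 3 libraries a group, bars the standard errors, and open points had an adjusted p of 0.05 or more. The cyclins Ccnd1, Ccnd2, Ccne1 and Ccne2 lie between -4.43 and -3.38 in M0 and closer to 0 in M1, while Cdkn1b is above 0 in all 3 states.

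Among the D-type cyclins, Ccnd1, the main D cyclin induced by M-CSF, had the largest fold change in M0 and M2. It stood at 163, 353 and 449 CPM in the 3 Prep+/- M0 libraries and at 22.6, 10.2 and 21.3 CPM in the 3 Prep-/- M0 libraries. The groups did not overlap, although replicate 1 of Prep+/- M0 was the lowest of its group by far. The genotypes did not overlap for 52.6% of all genes in M0, 56.9% in M1 and 42.1% in M2. The fitted log2 fold change was -4.16 ± 0.67 (SE), with an edgeR adjusted p of 0.000111. In M1 the levels were 200, 178 and 179 CPM in Prep+/- and 142, 110 and 175 CPM in Prep-/-. Every Prep-/- M1 library was below every Prep+/- library, and the log2 fold change of -0.38 had a 95% interval from -1.62 to 0.85 and was not called (edgeR adjusted p = 0.631). When the 6 M1 libraries were fitted by themselves it was called at -0.40 (edgeR adjusted p = 0.0437).

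In M2, Ccnd1 stood at 257, 225 and 309 CPM in Prep+/- and at 11.2, 14.3 and 104 CPM in Prep-/-. Replicate 3 of Prep-/- M2 thus lay far above the other two, though below all Prep+/- libraries. The log2 fold change was -2.61 ± 0.62 (edgeR adjusted p = 0.00576), it was -4.36 without that library, and when the 6 M2 libraries were fitted by themselves it was no longer called (edgeR adjusted p = 0.0651). Over the groups, the order of Ccnd1 means from high to low was Prep+/- M0, Prep+/- M2, Prep+/- M1, Prep-/- M1, Prep-/- M2 and Prep-/- M0. Among neighbours in this order, the libraries of the first pair and of the last pair overlapped. Through its replicate 1 (163 CPM), Prep+/- M0 also overlapped Prep+/- M1 (178 to 200 CPM) and Prep-/- M1 (110 to 175 CPM).

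Ccnd2, the D cyclin known from lymphoid and myeloid cells, was the lowest of the 3 per transcript length in every library. It stood at 4.47, 7.81 and 10.9 CPM in Prep+/- M0 and at 0.996, 0.628 and 0.600 CPM in Prep-/- M0, which rest on 49 counts in all. The Prep+/- values were thus all higher, and the log2 fold change was -3.38 ± 0.54 (edgeR adjusted p = 0.000109). In M1 it was 17.9, 13.2 and 16.8 CPM against 13.04, 10.94 and 15.42 CPM, and in M2 3.67, 2.43 and 3.84 CPM against 0.604, 0.600 and 3.79 CPM. Both pairs of groups overlapped and neither difference was called, at -0.28 (95% interval -1.19 to 0.63) in M1 and -0.98 (-2.05 to 0.09) in M2. In M2 the overlap came from replicate 3 of Prep-/-, and without it the log2 fold change was -2.44 (edgeR adjusted p = 0.000417).

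Ccnd3, the third D cyclin, had a different pattern. It stood at 109, 109 and 99.1 CPM in Prep+/- M0 and at 82.6, 76.2 and 107 CPM in Prep-/- M0, groups that overlapped and whose log2 fold change of -0.25 was not called (95% interval -0.59 to 0.09). Replicate 3 of Prep-/- M0 was the high value, and without it the change was called at -0.42 (edgeR adjusted p = 0.0429). In M2 its values were 90.8, 75.7 and 73.4 CPM against 33.4, 42.8 and 25.9 CPM. Here all Prep-/- libraries were lower, replicate 3 the lowest, and the log2 fold change was -1.23 ± 0.16 (edgeR adjusted p = 7.34e-05). In M1 it was 222, 281 and 261 CPM against 183, 180 and 202 CPM, a change of -0.43 ± 0.16 that just passed the threshold (edgeR adjusted p = 0.0436). That M1 call was lost under 14 of the 28 alternatives, among them the fits without replicate 2 or 3 of Prep+/- M1 or without any of the 3 Prep-/- M1 libraries (adjusted p of 0.0591 to 0.163).

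**Figure D2:**
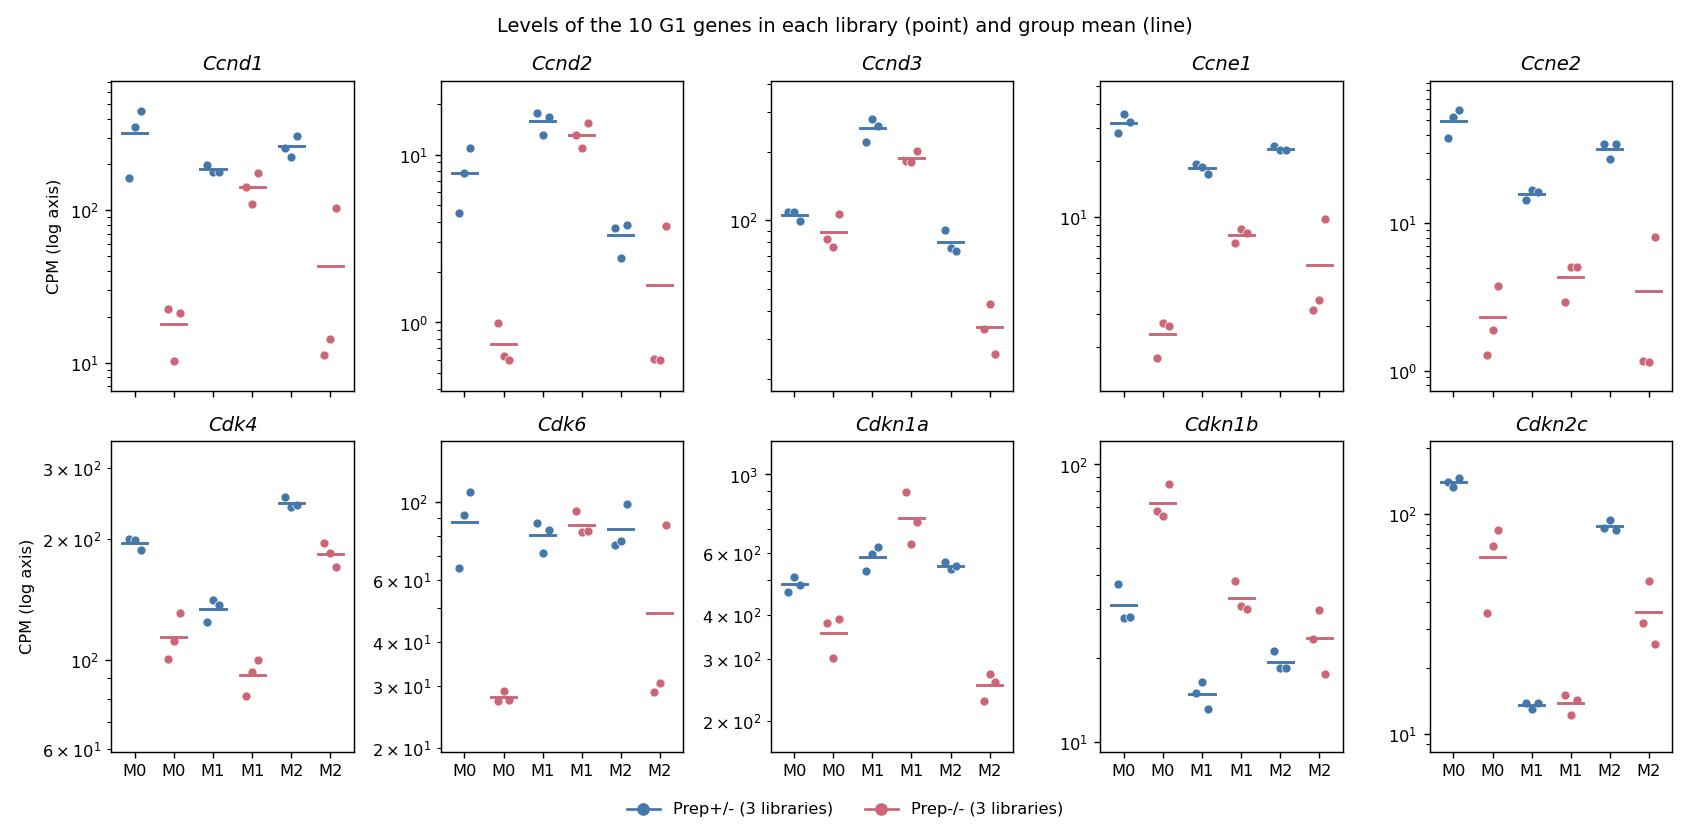
CPM (log axis) of each of the 10 genes in the 18 libraries (points) with the group means (lines), in the order M0, M1, M2 and within each state Prep+/- (blue) and Prep-/- (red). In Prep-/- M2, the highest point of Ccnd1 (104 CPM), Ccnd2 (3.79), Ccne1 (9.68), Ccne2 (8.10) and Cdk6 (85.8) is replicate 3.

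Per length of the annotated canonical transcript, the make-up of the D cyclins differed between the groups. Ccnd1 made up 44.0%, 62.8% and 70.0% of the summed CPM per kb of Ccnd1, Ccnd2 and Ccnd3 in Prep+/- M0, and 59.8%, 61.0% and 68.8% in Prep+/- M2. In Prep-/- M0 its share was 12.7%, 6.64% and 9.58%, and Ccnd3 held 87.0% to 93.1%. In Prep-/- M2 the Ccnd1 share was 15.1%, 15.02% and 67.1%, the last again in replicate 3. In M1 the ranges of both genotypes overlapped, with Ccnd1 at 24.9% to 31.8% in Prep+/- and 24.1% to 31.0% in Prep-/-. Ccnd2 never passed 1.71%. The summed D cyclin level was 97.4 to 169 CPM per kb in Prep+/- M0 and 40.5 to 58.6 in Prep-/- M0, 97.1 to 118 and 19.6 to 40.8 in M2, and 166 to 188 and 120 to 149 in M1. With all annotated exons as the length, the share of Ccnd1 in Prep+/- M0 was 73.6% to 88.8% and in Prep-/- M0 20.5% to 34.3%, so the levels of these shares, though not that difference, depend on the length used.

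**Figure D3:**
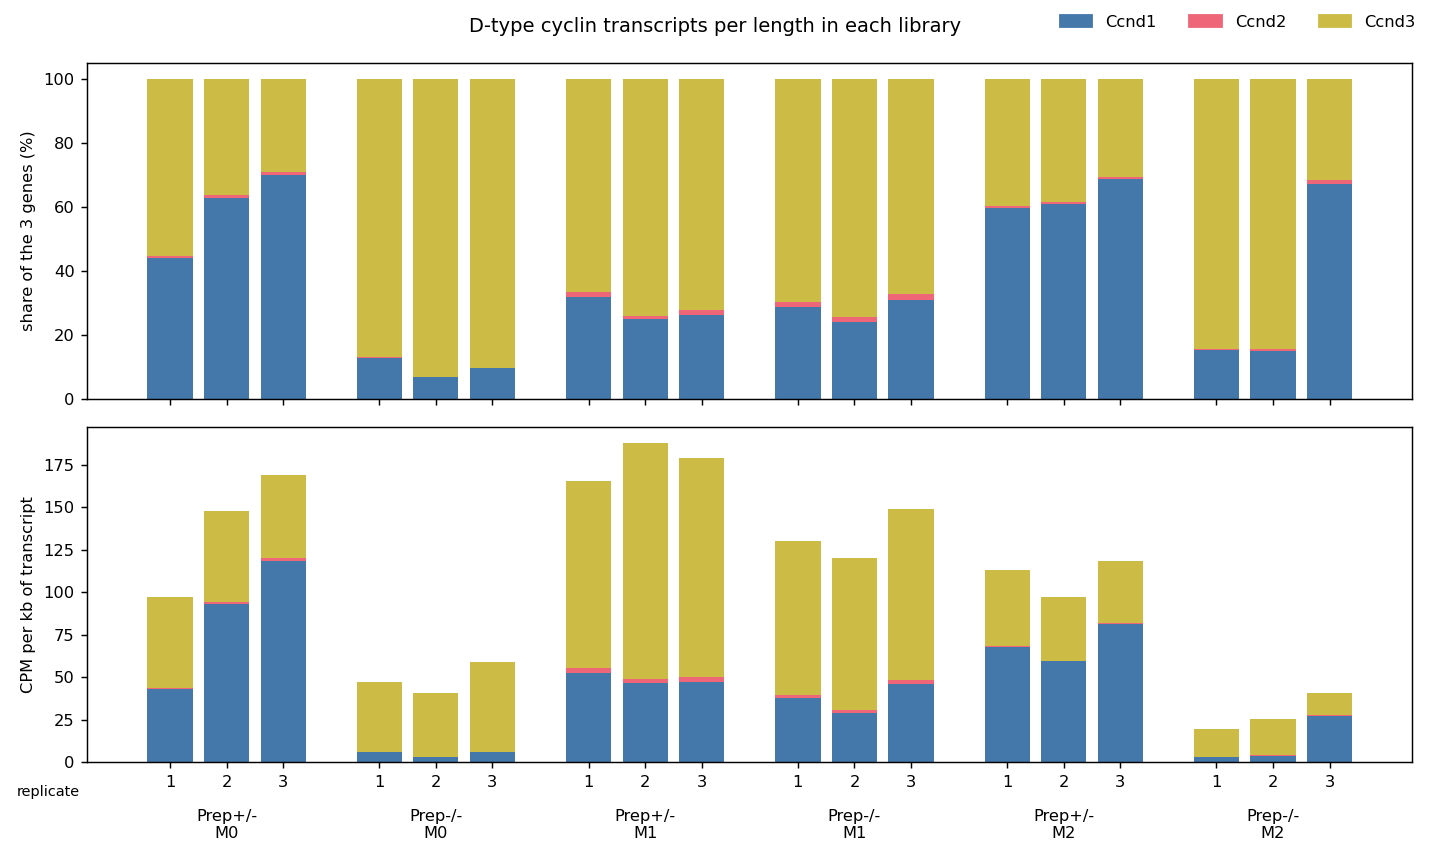
Share of the 3 D-type cyclin genes (upper panel, %) and their level (lower panel, CPM per kb of canonical transcript) in each of the 18 libraries, 1 stacked bar a library. Ccnd1 fills 44.0% to 70.0% of the bar in Prep+/- M0 and 6.64% to 12.7% in Prep-/- M0, and replicate 3 of Prep-/- M2 differs from the other 2 of its group.

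The E-type cyclins, which activate Cdk2 at the entry into S phase, were lower in Prep-/- in all 3 states. Ccne1 stood at 28.0, 35.4 and 32.3 CPM in Prep+/- M0 and at 1.76, 2.68 and 2.58 CPM in Prep-/- M0. The groups lay far apart, the log2 fold change being -3.76 ± 0.31 (edgeR adjusted p = 4.87e-07). In M1 the values were 19.2, 18.6 and 17.0 CPM against 7.22, 8.57 and 8.14 CPM, a change of -1.19 ± 0.28 (edgeR adjusted p = 0.00434). In M2 they were 24.0, 22.7 and 22.7 CPM against 3.17, 3.60 and 9.68 CPM, a change of -2.07 ± 0.29 (edgeR adjusted p = 9.89e-05). Replicate 3 of Prep-/- M2 was again the highest of its group, and still below all Prep+/- libraries, and without it the change was -2.76.

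Ccne2 had the largest fold change of the 10 genes in each state. It stood at 38.2, 52.8 and 58.4 CPM in Prep+/- M0 and at 1.28, 1.88 and 3.78 CPM in Prep-/- M0, which makes -4.43 ± 0.55 on the log2 scale (edgeR adjusted p = 1.2e-05). In M1 it was 14.3, 16.9 and 16.3 CPM against 2.91, 5.09 and 5.04 CPM. The groups did not overlap, and the change was -1.86 ± 0.51 (edgeR adjusted p = 0.0102), with a lost call without replicate 1 of Prep-/- M1 (-1.66, adjusted p = 0.0544). In M2 it was 34.7, 27.3 and 34.5 CPM against 1.16, 1.15 and 8.10 CPM, a change of -3.20 ± 0.52 (edgeR adjusted p = 0.000342), which was -4.78 without replicate 3 of Prep-/-. Ccne1, Ccne2 and Cdk4 were the members called as lower in all 3 states.

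Cdk4 and Cdk6 are the kinases that the D cyclins activate. Cdk4 stood at 199, 198 and 187 CPM in Prep+/- M0 and at 100, 111 and 131 CPM in Prep-/- M0. The genotypes did not overlap in any state: M1 had 124, 141 and 137 CPM against 81.3, 93.5 and 99.7 CPM, and M2 254, 240 and 243 CPM against 195, 185 and 170 CPM. The log2 fold changes were -0.77 ± 0.11, -0.55 ± 0.11 and -0.42 ± 0.11 (edgeR adjusted p = 2.87e-05, 0.00123 and 0.00813). The changes in M1 and M2 were under 1.5-fold, and none of the 3 was called by glmTreat against that fold (adjusted p of 0.0732, 1 and 1). The M2 call was at its edge without replicate 1 of Prep+/- M2 (-0.39, adjusted p = 0.05001).

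Cdk6, the other partner of the D cyclins, fell in M0. It stood at 64.6, 91.8 and 107 CPM in Prep+/- M0 and at 27.1, 29.0 and 27.4 CPM in Prep-/- M0, a log2 change of -1.66 ± 0.31 (edgeR adjusted p = 0.000382). In M1 the libraries of both genotypes overlapped, with 86.9, 71.3 and 82.8 CPM against 94.0, 81.9 and 82.4 CPM, and the difference of 0.10 had a 95% interval from -0.53 to 0.73. In M2 the values were 75.4, 77.3 and 98.6 CPM against 28.9, 30.5 and 85.8 CPM. Replicate 3 of Prep-/- lay within the Prep+/- range and the other two far below it. The change of -0.79 ± 0.30 was not called (edgeR adjusted p = 0.066). It was called with the replicate number as a block, a pairing read from these same data (-0.97, adjusted p = 0.0354). It was also called without replicate 3 (-1.48, adjusted p = 1.67e-05). Per length, Cdk4 was 4.85 to 37.8 times Cdk6 in every library, least in Prep-/- M1 (4.85 to 6.78) and most in replicates 1 and 2 of Prep-/- M2 (37.8 and 34.0).

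The 3 inhibitors differed from each other. Cdkn1a, which encodes p21, stood at 463, 513 and 487 CPM in Prep+/- M0 and at 378, 301 and 388 CPM in Prep-/- M0. Its change was -0.46 ± 0.13 in M0 (edgeR adjusted p = 0.00848). In M2 it was 565, 538 and 551 CPM against 227, 272 and 257 CPM, a change of -1.13 ± 0.13 (edgeR adjusted p = 2.54e-05) in which all 3 Prep-/- libraries lay far below the Prep+/- libraries. In M1 the direction was the opposite. The values there were 534, 594 and 623 CPM against 891, 633 and 732 CPM, a change of 0.37 ± 0.13 (edgeR adjusted p = 0.0363) in which the groups came close, at 623 and 633 CPM. That call was lost in most fits that left out a library, with the smallest change, 0.22 (adjusted p = 0.240), without replicate 1 of Prep-/- M1.

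Cdkn1b, which encodes p27, rose in M0 and M1. It stood at 37.1, 28.0 and 28.3 CPM in Prep+/- M0 and at 67.7, 65.3 and 84.8 CPM in Prep-/- M0, a log2 change of 1.22 ± 0.18 (edgeR adjusted p = 4.11e-05). In M1 it was 14.96, 16.47 and 13.15 CPM against 37.9, 30.8 and 30.1 CPM, a change of 1.15 ± 0.18 (edgeR adjusted p = 0.000309). In both states every Prep-/- library was well above every Prep+/- library. In M2 the groups overlapped, with 21.3, 18.5 and 18.5 CPM against 23.5, 30.0 and 17.5 CPM, and the difference of 0.28 was not called (95% interval -0.09 to 0.66). Replicate 3 was the low Prep-/- value, and without it the difference was called at 0.47 (edgeR adjusted p = 0.0443).

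Cdkn2c, which encodes p18, fell in M0 and M2. It stood at 141, 133 and 145 CPM in Prep+/- M0 and at 35.5, 71.8 and 84.4 CPM in Prep-/- M0, a change of -1.13 ± 0.24 (edgeR adjusted p = 0.00122). In M2 it was 86.1, 93.8 and 85.1 CPM against 32.1, 49.7 and 25.7 CPM, a change of -1.30 ± 0.25 (edgeR adjusted p = 0.0011). Unlike the E cyclins, it was lowest in replicate 3 of Prep-/- M2, and in M0 replicate 1 was the low Prep-/- library. In M1 all 6 libraries lay between 12.25 and 15.02 CPM, and the difference of 0.03 had a 95% interval from -0.52 to 0.58.

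Stimulation moved the G1 genes in ways that differed with the genotype. All comparisons with M0 within a genotype share that genotype's M0 libraries, and the comparisons of genotypes share them too. With LPS, 6 of the 10 genes were called in Prep+/-, 1 higher and 5 lower, against 52% of all genes tested (24.7% higher, 27.2% lower). In Prep-/-, 9 were called, 6 higher and 3 lower, against 57% of all genes (29.3% higher, 27.8% lower). Ccnd3 rose with LPS in both genotypes, by 1.27 ± 0.16 in Prep+/- and 1.09 ± 0.16 in Prep-/-. Cdkn2c fell the most, by 3.37 on the log2 scale in Prep+/- and by 2.21 in Prep-/-, and Cdkn1b fell by 1.06 and 1.14. Cdk4 fell by 0.54 and 0.32, and its Prep-/- call was lost without replicate 3 of Prep-/- M0 or replicate 1 of Prep-/- M1 (adjusted p = 0.0613 and 0.06).

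For the other 6 genes the LPS response differed with the genotype, for Ccnd2 and Cdkn1a in size and not in direction. The fall of Cdkn2c differed in size as well. Ccne1 alone was called in both genotypes in opposite directions. For Ccnd1 and Cdk6 the Prep+/- value was not called, and for Ccne2 the Prep-/- value. Their opposite signs therefore do not show opposite responses in the main fit. Ccne1 fell by 0.81 in Prep+/- (edgeR adjusted p = 0.0189) and rose by 1.76 ± 0.31 in Prep-/- (edgeR adjusted p = 0.000144), from 1.76 to 2.68 CPM in M0 to 7.22 to 8.57 CPM in M1. Its call in Prep+/- was lost without replicate 2 of Prep+/- M0 (adjusted p = 0.0667) or replicate 3 of Prep+/- M1 (adjusted p = 0.0518). Ccne2 fell by 1.65 in Prep+/- (edgeR adjusted p = 0.00733), while in Prep-/- its 0.91 was not called (95% interval -0.27 to 2.09). The Prep-/- value was called with a replicate block, a pairing read from these same data (0.94, adjusted p = 0.0224). It was also called without replicate 3 of Prep-/- M2 (0.86, adjusted p = 0.0259). Ccnd1 rose by 2.98 ± 0.64 and Ccnd2 by 4.14 ± 0.55 in Prep-/- (edgeR adjusted p = 0.000801 and 7.76e-06). In Prep+/- the values were -0.79 for Ccnd1 and 1.04 for Ccnd2, neither called (edgeR adjusted p = 0.27 and 0.0566). Without replicate 3 of Prep-/- M2, which adds to the estimate of the spread, both passed the test, at -0.82 (adjusted p = 0.0293) and 1.01 (adjusted p = 0.00285). Cdk6 and Cdkn1a rose in Prep-/- by 1.63 ± 0.31 and 1.08 ± 0.13 (edgeR adjusted p = 0.000278 and 3.23e-06), and their values in Prep+/- were -0.13 and 0.26, not called. The scaling matters in this comparison. With total counts the median of all genes was -0.50 in Prep+/-, against -0.03 with TMM, and the Cdkn1a value there turned to -0.21.

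**Figure D4:**
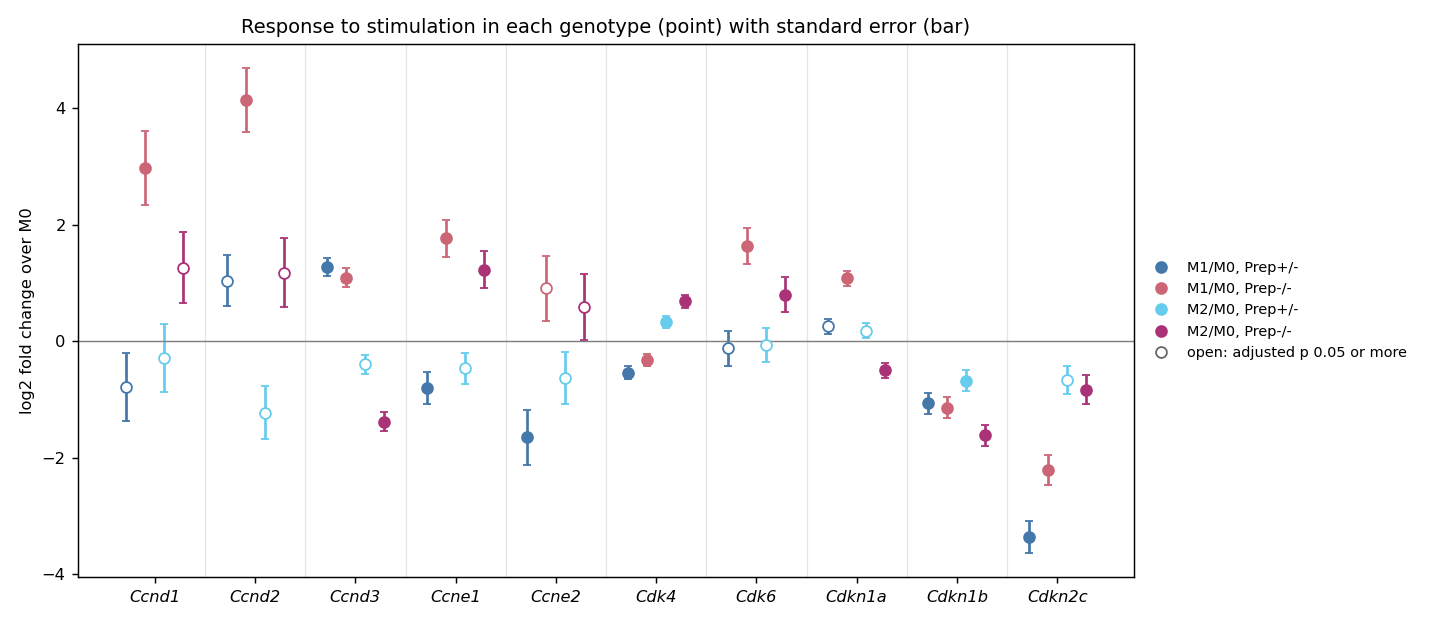
Log2 fold change over M0 (vertical axis) of each gene after LPS (M1) and after IL-4 and IL-13 (M2) in Prep+/- and Prep-/-; points are edgeR estimates from 3 libraries a group, bars the standard errors, and open points had an adjusted p of 0.05 or more. With LPS, Ccnd1 (2.98), Ccne1 (1.76) and Cdk6 (1.63) rose in Prep-/- where the Prep+/- values lie below 0. Those Prep+/- values of Ccnd1 and Cdk6 were not called.

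With IL-4 and IL-13, 2 of the 10 genes were called in Prep+/-, against 18.3% of all genes (9.3% higher, 9.03% lower): Cdk4 rose by 0.33 ± 0.11 (edgeR adjusted p = 0.0375) and Cdkn1b fell by 0.68 (edgeR adjusted p = 0.0124). The Cdk4 call was lost under 20 of the 28 alternatives, and that of Cdkn1b without replicate 1 of Prep+/- M0 (adjusted p = 0.0679) or replicate 2 of Prep+/- M2 (adjusted p = 0.0504). The count was 6 (1 higher, 5 lower) without replicate 3 of Prep-/- M2, 4 without replicate 3 of Prep-/- M0 and 7 in a fit of the 6 libraries compared. It was 0 without replicate 2 of Prep+/- M2 and 1 in most other fits that left out a library. The share of all genes called was not counted in these fits, so the counts cannot be set against it. Ccnd3, Ccne1, Ccne2 and Cdkn2c had Prep+/- M2 libraries all below those of M0, as did Ccnd2, with values of -0.40, -0.46, -0.63 and -0.66 and, for Ccnd2, -1.23, none of them called. Of all genes, 23.3% had such libraries all lower in M2. In Prep-/-, 7 genes were called, against 43.7% of all genes (22.1% higher, 21.6% lower). Ccnd3 fell by 1.38, Cdkn1b by 1.62, Cdkn2c by 0.83 and Cdkn1a by 0.50, while Cdk4 rose by 0.68 ± 0.11, Ccne1 by 1.23 ± 0.32 and Cdk6 by 0.80 ± 0.30. The Cdk6 call was lost under 20 of the 28 alternatives, and its value was 0.08 without replicate 3 of Prep-/- M2 (adjusted p = 0.748), where Ccne1 was at 0.51 (adjusted p = 0.0377). The Cdkn2c call was lost without replicate 3 of Prep-/- M2 (-0.67, adjusted p = 0.0515) or replicate 3 of Prep-/- M0 (-0.60, adjusted p = 0.0637). Ccnd1, Ccnd2 and Ccne2 were at 1.26, 1.18 and 0.59, not called, and at -0.51, -0.30 and -1.02 without that M2 library. Without replicate 1 or 2 of Prep-/- M2 instead, Ccnd1 was called at 1.68 or 1.64 and Ccnd2 at 1.54 or 1.55 (adjusted p of 0.0243 to 0.0403), so the direction of these genes turned on single libraries.

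The knockout effect was tested for a difference between states. Between M1 and M0, it differed for 7 of the 10 genes, against 24.5% of all genes tested (13.7% upward, 10.9% downward), and in each of the 7 the difference was upward. The largest differences were those of Ccnd1 (3.77 ± 0.86, edgeR adjusted p = 0.00527) and Ccnd2 (3.11 ± 0.69, edgeR adjusted p = 0.00472), followed by Ccne1 (2.57 ± 0.41, edgeR adjusted p = 0.000439) and Ccne2 (2.56 ± 0.73, edgeR adjusted p = 0.0178). Cdk6 followed with 1.75 ± 0.43, Cdkn2c with 1.16 ± 0.35 and Cdkn1a with 0.82 ± 0.18. The Cdkn2c difference lost its call without any of 5 libraries: replicate 3 of Prep+/- M0, replicates 2 and 3 of Prep+/- M1 and replicates 1 and 3 of Prep-/- M1 (adjusted p of 0.0537 to 0.0675). For Ccnd3, Cdk4 and Cdkn1b the differences of -0.18, 0.22 and -0.08 were not called, with 95% intervals of -0.66 to 0.30, -0.09 to 0.54 and -0.61 to 0.45.

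Between M2 and M0 the knockout effect differed for 4 genes, 1 upward and 3 downward, against 9.49% of all genes (5.08% upward, 4.41% downward). Ccne1 was 1.69 ± 0.41 less reduced in M2 (edgeR adjusted p = 0.0184), a value of 0.9971 without replicate 3 of Prep-/- M2. Ccnd3 (-0.98 ± 0.23), Cdkn1b (-0.94 ± 0.25) and Cdkn1a (-0.67 ± 0.18) had a lower effect in M2 than in M0, at edgeR adjusted p of 0.0148, 0.0265 and 0.03. The call of Ccnd3 was lost without replicate 1 of Prep+/- M2 (adjusted p = 0.0549), that of Ccne1 without replicate 2 of Prep+/- M0 (adjusted p = 0.0521), that of Cdkn1b without any of 5 libraries, among them replicate 3 of Prep-/- M2 (-0.76, adjusted p = 0.0561), and that of Cdkn1a without any of 8 libraries (adjusted p of 0.0531 to 0.0781). The count was 1 without replicate 2 of Prep+/- M0 or replicate 1 of Prep+/- M2 and 2 without replicate 3 of Prep+/- M0. The share of all genes called in those fits was not counted. The difference for Ccnd2 was 2.41 and not called (edgeR adjusted p = 0.0528), while it was called without replicate 1 of Prep+/- M0 (2.67, adjusted p = 0.0323) or replicate 1 or 2 of Prep-/- M2 (2.79 and 2.80), and was 0.95 without replicate 3 of Prep-/- M2 (adjusted p = 0.377). The other 5 were not called, with 95% intervals of -0.23 to 3.33 for Ccnd1, -0.31 to 2.76 for Ccne2, 0.03 to 0.67 for Cdk4, -0.04 to 1.76 for Cdk6 (a difference that was 0.17 without replicate 3 of Prep-/- M2) and -0.89 to 0.55 for Cdkn2c. That of Cdk4 was called without replicate 3 of Prep-/- M0 (0.48, adjusted p = 0.0408).

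The spread between the Prep-/- M2 libraries was not the same for all members. Against the mean of the Prep+/- M2 libraries, Ccnd1 was at 4.26%, 5.42% and 39.4% in replicates 1 to 3, Ccne2 at 3.6%, 3.58% and 25.2%, and Cdk6 at 34.5%, 36.4% and 102%. Replicate 3 was thus the closest to Prep+/- for Ccnd1, Ccnd2, Ccne1, Ccne2 and Cdk6, and also for Cdkn1b, at 120.8%, 154.3% and 89.97%. For Ccnd3, Cdk4, Cdkn1b and Cdkn2c it was the lowest of the 3 libraries. The summed level of 20 S phase genes was 533, 619 and 1210 CPM in these libraries and 2076 to 2122 CPM in Prep+/- M2, and that of 20 mitosis genes 650, 1140 and 602 CPM against 2083 to 2165 CPM. Myc, chosen after its values were seen, was at 12.02, 11.44 and 55.12 CPM in the Prep-/- M2 replicates, and in Prep+/- M0 at 9.53, 23.9 and 43.4 CPM, where Ccnd1 was at 163, 353 and 449 CPM. The part of this library's difference in the results was not tested beyond leaving it out.

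**Figure D5:**
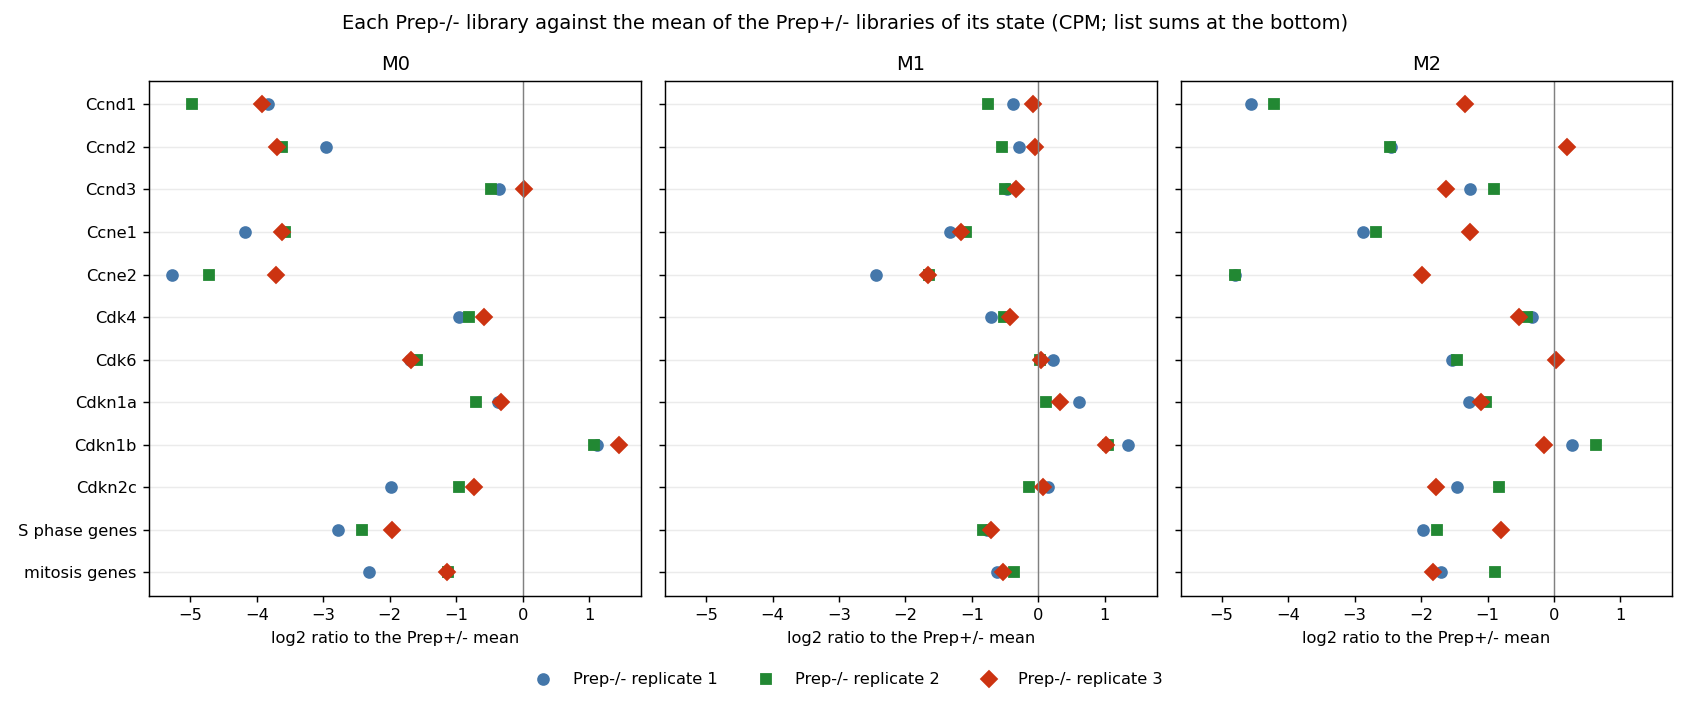
Log2 ratio of each Prep-/- library to the mean of the 3 Prep+/- libraries of its state (horizontal axis, CPM), for the 10 genes and for the summed S phase and mitosis lists; circles, squares and diamonds are replicates 1, 2 and 3. In M2 replicate 3 lies to the right of the others for Ccnd1, Ccnd2, Ccne1, Ccne2, Cdk6 and the S phase sum, and to the left for Ccnd3, Cdk4, Cdkn1b and Cdkn2c.

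The genes around these members were read from lists on the same pathway. Of 36 partners in the G1 to S transition, such as the retinoblastoma family, the E2F factors and the ubiquitin ligases that degrade cyclins and p27, M0 had 20 called down and 2 up, M1 had 8 down and 7 up, and M2 had 17 down and 3 up. Of all genes tested, 24.1%, 16.5% and 13.1% were called down and 24.3%, 19.7% and 11.6% up in these states. Their medians were -0.56, -0.11 and -0.37. E2f7 and E2f8, the repressive E2F factors that E2F itself induces, were the lowest in M0, at -3.23 ± 0.31 and -2.37 ± 0.30 (edgeR adjusted p = 1.46e-06 and 1.23e-05), and in M2, at -2.998 and -1.911. In M1 the lowest were E2f7 (-1.79 ± 0.36) and Ccna2, the A-type cyclin of S phase (-1.61 ± 0.40). Higher were Rb1, the retinoblastoma gene (0.33), and Fbxo31, a ligase subunit that targets cyclin D1 (0.63), in M0. In M1 Rbl2, a relative of Rb1 (0.87), and the inhibitor Cdkn2d (0.73) were higher, and in M2 the inhibitors Cdkn2b and Cdkn1c.

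Both of these M2 calls turned on single libraries. Cdkn2b was at 0.938, 0.797 and 1.65 CPM in Prep+/- M2 and at 1.76, 0.9996 and 6.85 CPM in Prep-/- M2, groups that overlapped, with replicate 3 of Prep-/- as the high value. Its log2 fold change was 1.51 ± 0.53 (edgeR adjusted p = 0.0481), and 0.31 (adjusted p = 0.592) without that library. Cdkn1c was at 1.88, 1.64 and 2.23 CPM in Prep+/- M2 and at 7.19, 2.699 and 4.36 CPM in Prep-/- M2, which did not overlap. Its log2 fold change was 1.31 ± 0.36 (edgeR adjusted p = 0.0133), and its call was lost without replicate 1 of Prep-/- M2 (0.88, adjusted p = 0.11) or replicate 2 of Prep+/- M2 (1.18, adjusted p = 0.0621). Without replicate 3 of Prep-/- M2, 2 of the 36 partners were called higher and 16 lower in M2, where 32.2% of all genes were called. The higher calls of Rb1 and Fbxo31 in M0 and of Cdkn2d in M1 were each lost without at least 1 library as well (adjusted p of 0.0522 to 0.0963).

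Genes that act after the G1 to S transition were mostly lower in M0 and M2, and in M1 this held for the S phase list. Of 20 S phase genes, all 20 fell in M0, 19 each in M1 and M2, and 0 rose, with medians of -2.49, -1.45 and -1.99, where 24.1%, 16.5% and 13.1% of all genes fell. Rrm2, a subunit of ribonucleotide reductase, and Uhrf1, which maintains DNA methylation at replication, were at -3.29 ± 0.48 and -3.26 ± 0.45 in M0. In M1 Uhrf1 (-2.07) and Cdc6, which loads the replicative helicase (-1.98), were the lowest, and in M2 Rrm2 (-2.84) and Tk1, thymidine kinase (-2.81). The M2 value of Rrm2 was -3.55 without replicate 3 of Prep-/- M2. Of 20 mitosis genes, 19 were lower in M0, 8 in M1 and 19 in M2, again with 0 higher and with medians of -1.51, -0.65 and -1.44. Top2a and Bub1 were at -1.98 and -1.87 in M0, Ube2c and Birc5 at -1.86 and -1.28 in M1, and Top2a and Ttk at -1.84 and -1.81 in M2. The Birc5 call was lost without any of 3 libraries of M1 (adjusted p of 0.0560 to 0.109). Without replicate 3 of Prep-/- M2 the M2 counts were 20 S phase and 18 mitosis genes, against 32.2% of all genes called.

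The p53 targets did not move in 1 direction. Among the 19 tested, M0 had 5 called up and 7 down, M1 had 8 up and 2 down, and M2 had 0 up and 6 down, with medians of -0.14, 0.27 and -0.37, where 24.3%, 19.7% and 11.6% of all genes were up and 24.1%, 16.5% and 13.1% down. Without replicate 3 of Prep-/- M2, the M2 count was 0 up and 8 down (32.2% of all genes called). Like Cdkn1a, Gdf15, a stress-induced cytokine, was higher in M1 (2.46 ± 0.29, edgeR adjusted p = 3.97e-05), and Phlda3 was lower in M2 (-1.82 ± 0.19, edgeR adjusted p = 1.03e-05). In M0 Plk3 was lower (-3.15 ± 0.45), and Fas (1.10) and Sesn1 (1.09) were higher. Trp53inp1 was higher in M1 (1.82 ± 0.25), where Plk3 (-1.06) and Aen (-0.60) were lower, calls that were lost without any of 3 and any of 5 of the M1 libraries. Eda2r was lower in M0 (-1.96 ± 0.62, edgeR adjusted p = 0.0151) and M2 (-2.79 ± 0.64, edgeR adjusted p = 0.00442). Its levels were near the floor, so these values rest on few reads. They were 0 to 0.474 CPM in Prep-/- M0 against 1.002 to 1.185 CPM, and 0.0503 to 0.450 against 1.115 to 1.875 CPM in M2. The changes were -2.58 without replicate 1 of Prep-/- M0 and -3.87 without replicate 2 of Prep-/- M2.

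Of 19 tested genes of growth factor input, M0 had 8 called up and 6 down, M1 had 5 up and 4 down, and M2 had 4 up and 0 down, with medians of 0.41, 0.14 and 0.29, where 24.3%, 19.7% and 11.6% of all genes were up and 24.1%, 16.5% and 13.1% down. Csf1r, the M-CSF receptor, was higher in Prep-/- M0 (1.39 ± 0.20, edgeR adjusted p = 4.39e-05) and M2 (0.72 ± 0.20, edgeR adjusted p = 0.0141). The M2 call was lost without replicate 3 of Prep+/- M2 or replicate 1 of Prep-/- M2 (adjusted p = 0.0558 and 0.0687). The early response gene Fosl1 had 7, 22 and 34 counts in the Prep+/- M0 libraries and 0, 1 and 1 in the Prep-/- M0 libraries, so its call there (edgeR adjusted p = 0.0286) rests on few reads and was lost without any of 5 libraries. Egr1, another early response gene, was at 7.25, 23.9 and 120 CPM in Prep+/- M0 and at 6.45, 2.34 and 2.399 CPM in Prep-/- M0. The groups did not overlap, and the log2 fold change was -3.77 ± 1.03 (edgeR adjusted p = 0.00661), but -2.09 and not called (adjusted p = 0.0814) without replicate 3 of Prep+/- M0, the high library. Mxd4, a Max partner that opposes Myc, was higher in M0 (1.40 ± 0.26). In M1, Fosl1 (-2.98, a call lost without any of the 6 M1 libraries) and Myc (-2.56 ± 0.59, edgeR adjusted p = 0.00382) were the lowest. Mxd1, another opponent of Myc (2.49 ± 0.38, and 1.71 without replicate 1 of Prep-/- M1), and Foxo1, a factor that induces Cdkn1b (0.74 ± 0.15), were the highest of those called. Myc was lower in M0 too, at 1.465 to 2.561 CPM in Prep-/- against 9.53 to 43.4 CPM in Prep+/-. Its log2 fold change there was -3.76 ± 0.64 (edgeR adjusted p = 0.00018), and -3.16 (adjusted p = 0.00101) without replicate 3 of Prep+/- M0. In M2 the Myc value of -0.91 was not called (edgeR adjusted p = 0.227), and was -2.06 (adjusted p = 0.00231) without replicate 3 of Prep-/- M2. Without replicate 3 of Prep-/- M2, the M2 count was 5 higher and 3 lower (32.2% of all genes called), and without replicate 3 of Prep-/- M0 the M0 count was 6 higher and 4 lower (50.5% called).

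The 2 genes with the most similar profile over the 6 group means were found for each member, by the root mean square difference of the centred log2 CPM. Cdkn2c was close to Cenpe (0.07) and Arhgef39 (0.08), the first a mitotic kinesin, although its own group means varied with a standard deviation of 1.27. The nearest to Ccne1 were Hells, a helicase of dividing cells (0.29), and Ctps (0.32), and to Ccne2 Epha2 (0.35) and Uhrf1 (0.48). Ccnd1 was nearest to Etv5, a target of the ERK pathway (0.50), and Rpl39l (0.64), at a distance that was the largest of the 10. Ccnd2 had Spred2, an inhibitor of that pathway (0.26), and Msr1 (0.35), and Ccnd3 had Prkar2b (0.15) and Filip1l (0.22). For Cdk4 they were Slc35e4 (0.08) and Bzw2 (0.09), for Cdk6 Ptges3l (0.12) and Ide (0.13), for Cdkn1a Gm35315 (0.13) and Tm7sf3 (0.15), and for Cdkn1b Noxo1 (0.14) and Cd5l (0.14). With 6 points a gene, the likeness is a description only.

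Some members share bases with another gene, and the strand setting of the counting is not given in the sources used here. Ccnd1 shares 2315 bases with LTO1 on the opposite strand, which stood at 15.1 to 18.5 CPM in Prep+/- M0 and 17.6 to 20.6 CPM in Prep-/- M0. Ccnd1 itself stood at 10.2 to 22.6 CPM in Prep-/- M0, and the part of LTO1 reads in these values was not tested. Cdk4 shares 646 bases with Tspan31, at 101 to 112 CPM and 126 to 153 CPM in the same groups. The LTO1 libraries overlapped between genotypes (0.19, edgeR adjusted p = 0.15), and Tspan31 was higher in Prep-/- M0 by 0.39 ± 0.09 (edgeR adjusted p = 0.00255). Ccnd3 shares 369 bases with Bysl, a ribosome assembly gene that was itself lower in Prep-/-, at -1.05 ± 0.28 in M0 and -0.98 ± 0.27 in M1 (edgeR adjusted p = 0.00558 and 0.0113). Its M2 value of -0.23 was not called, but was -0.78 (adjusted p = 0.00548) without replicate 3 of Prep-/- M2, and its M1 call was lost without replicate 1 of Prep-/- M1 (adjusted p = 0.0554). The part of Bysl reads in the Ccnd3 values was not tested. Ccnd3 is also 96.3% identical to the pseudogene Ccnd3-ps over 881 bases, so its reads could be split. Ccne2 shares 474 bases with Ints8, whose M0 difference of -0.20 was not called (edgeR adjusted p = 0.283). It was called at -0.42 (adjusted p = 0.0154) without replicate 2 of Prep-/- M0. Ccnd2, Cdkn1b and Cdkn2c share up to 374, 239 and 151 bases with non-coding RNA genes. Cdk6 is 91.5% identical to the non-coding Gm61537 over 387 bases. The part of such reads was not tested.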

How the data were processed

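RNA-seq of whole BMDM cultures was available as 1 table of raw gene counts, which the authors deposited for 18 libraries (6 groups of 3). Per the labels and the study's methods, poly(A) RNA was made into stranded libraries, trimmed with Trimmomatic 0.36, aligned to GRCm39 with HISAT2 2.2.1.0 and assembled with StringTie. The annotation release, the strand setting and the treatment of reads with several matches are not given in the sources used here. Reads shared between overlapping genes or near copies could therefore move between them.

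Groups were taken from the labels, in which the replicates are biological. Counts were tested with edgeR 4.0.16 in R 4.3.3 (TMM scaling, filterByExpr, robust quasi-likelihood fit with 1 coefficient for each group over all 18 libraries, 12 residual degrees of freedom). P-values were adjusted by Benjamini-Hochberg over 12021 genes, and a gene was called at an adjusted p under 0.05. The 9 comparisons were Prep-/- against Prep+/- in each state, M1 and M2 against M0 for either genotype, and the change in the knockout effect from M0 to M1 or M2. TMM factors were 0.819 to 1.20, and the common biological coefficient of variation was 0.167. No 2 libraries were identical. The scripts were tested on simulated counts.

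All 10 members were named in every comparison. Of each pathway list up to 2 called genes with the highest and 2 with the lowest fold change could be named per knockout comparison, and the 2 genes nearest in group profile for each member. The members and lists were chosen with earlier results of these data known. Alternatives were other scalings, filters and call rules, DESeq2 1.42.0, only the libraries compared, a replicate block and each library left out. List counts without replicate 3 of Prep-/- M2 or of Prep-/- M0, and the named list genes without each library, were added after seeing the data.

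Same-numbered libraries deviated together, with every correlation over 0.1, in 2 of the 7 comparisons of 2 groups. The correlations were 0.249, 0.255 and 0.462 for the genotypes in M2 and 0.201, 0.169 and 0.259 for M1 against M0 in Prep-/-. The labels do not say that a number marks a shared animal, and the numbers were read as pairs in these comparisons from the data alone. Libraries of different genotypes come from different mice. The choice of the block rests on the same data as the calls, so its calls are given as alternatives only. Lengths and positions came from the GENCODE annotation of GRCm39, promoters from the RefSeq table of GRCm38.p6, near copies from blastn 2.17.0, and figures from matplotlib 3.10.9.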

Additional observations from a re-analysis of the deposited data

Results flagged for a closer look

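The knockout effect differed between states for 11 pairs of a G1 gene and a state by a test of the difference itself, the interaction term of edgeR's quasi-likelihood fit with adjustment over all genes tested. Of all genes tested, 24.5% were called between M1 and M0 and 9.49% between M2 and M0. Between M1 and M0 the differences on the log2 scale were 3.77 for Ccnd1, 3.11 for Ccnd2, 2.57 for Ccne1, 2.56 for Ccne2, 1.75 for Cdk6, 1.16 for Cdkn2c and 0.82 for Cdkn1a. Between M2 and M0 they were 1.69 for Ccne1, -0.98 for Ccnd3, -0.94 for Cdkn1b and -0.67 for Cdkn1a. These M2 calls were lost under 4, 3, 8 and 10 of the 28 alternatives. The M1 call of Cdkn2c was lost under 6 of them, and those of Ccne2 and Cdkn1a under 1 each. For Ccnd1, Ccnd2, Ccne1, Ccne2, Cdk6 and Cdkn2c the effect in M1 was thus nearer to 0 than in M0. That of Cdkn1a was -0.46 in M0 and 0.37 in M1, where its call was lost under 16 of the 28 alternatives. The 2 sets of differences share the M0 libraries.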

How the results depend on the processing

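Of 2520 values of single members under the alternatives, 2300 kept their direction and their side of the threshold, 142 lost and 60 gained a call, and 18 changed sign. Values that changed sign were not called in either setting. They were Cdkn2c between genotypes in M1 (-1.314e-05 with DESeq2 size factors, and -0.043 to 0.10 over the fits without 1 library), Cdkn1a for M1 against M0 in Prep+/- with total counts (-0.21), and the difference of the knockout effect in M1 with total counts (0.033 for Ccnd3 and 0.13 for Cdkn1b). Over the fits without 1 library, M1 against M0 in Prep+/- ranged from -0.33 to 0.052 for Cdk6, and M2 against M0 in Prep+/- from -0.26 to 0.098 for Cdk6 and from -0.62 to 0.032 for Ccnd1, each turning without replicate 3 of Prep+/- M0. M2 against M0 in Prep-/- ranged from -0.51 to 1.68 for Ccnd1, from -0.30 to 1.55 for Ccnd2 and from -1.02 to 1.11 for Ccne2, and the difference in M2 from -0.20 to 1.98 for Ccnd1, from -0.36 to 1.77 for Ccne2 and from -0.48 to 0.089 for Cdkn2c, the cyclin values being negative only without replicate 3 of Prep-/- M2. For Cdkn1b the difference in M1 ranged from -0.24 to 0.052. Counts of members called moved by over 1.5 times as follows. Between genotypes in M1, from 6 to 3 with a fold rule of 1.5 and to 1 with glmTreat. For M2 against M0 in Prep+/-, from 2 to 1 with the fold rule, DESeq2 size factors or no filter, to 0 with glmTreat, to 4 with the DESeq2 Wald test and to 7 with only the libraries compared, blocked or not. For M2 against M0 in Prep-/-, from 7 to 2 with glmTreat and to 3 with only the libraries compared, blocked or not. For the difference in M1, from 7 to 4 with glmTreat, and in M2 from 4 to 0 with glmTreat, to 2 with only the libraries compared and to 0 with those and the block. Leaving out 1 library gave 9 to 10, 3 to 6 and 6 to 10 calls between genotypes in M0, M1 and M2, 5 to 8 and 8 to 10 for M1 against M0 in Prep+/- and Prep-/-, 0 to 6 and 5 to 9 for M2 against M0, and 6 to 7 and 1 to 5 for the differences in M1 and M2. The 3 calls in M1 were those without replicate 1 of Prep-/- M1. Apart from the shares given above for genotype comparisons without replicate 3 of Prep-/- M2 or of Prep-/- M0, the share of all genes called was not counted under the alternatives. Where the numbers were read as pairs from these data, the replicate block gave 8 in place of 7 calls between genotypes in M2 and 10 in place of 9 for M1 against M0 in Prep-/-. With total counts the median of all genes was -0.50 and -0.26 for M1 against M0 in Prep+/- and Prep-/-, and 0.24 for the difference in M1. With TMM these medians were -0.03, 0.0004 and 0.04. The cause of these changes was not tested. Ccnd2 in Prep-/- M0 rests on 49 counts, so depth limits its fold change.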
